A study of Homo sapiens with 8 samples.

Results

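The genes described here encode the contractile and actin-binding machinery of the cell: nonmuscle myosin chains, tropomyosins, actins, crosslinkers, adaptors of focal adhesions, the ERM linkers and the factors that build and sever filaments. They were taken from a list of 48 symbols, of which 44 were measured among the 19775 genes of the series. TPM3, ACTG1, FLNA and FLNC were not analysed here. For the pair of cytoplasmic actins, 9 probe sets carried the symbols of both ACTB and ACTG1 and were not used.

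HuCCT1, an established human cholangiocarcinoma cell line, carried either an shRNA against YAP1, of which the labels name a single one, or a scrambled control shRNA. Both groups received doxycycline at 100 ng/ml, started 3 days before seeding, which switches on the shRNA, so the control cells carry the inducer and a vector too. RNA of 4 YAP shRNA and 4 control shRNA samples was measured on Affymetrix HG-U133 Plus 2 arrays, and the labels do not say whether replicates came from separate cultures. The p-values therefore cover the spread among these samples alone, and that spread may be technical. The series title speaks of overexpression, whereas the design text and the labels describe knockdown.

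Contractile force in nonmuscle cells comes from myosin II, a hexamer of heavy, essential light and regulatory light chains that pulls on actin filaments when the regulatory light chain is phosphorylated. Tropomyosins run along the filaments and set which myosins and severing factors reach them, α-actinins tie filaments into bundles, and focal adhesions anchor the bundles to integrins. YAP is a transcriptional coactivator that works through TEAD factors and responds to tension in this machinery, and several cytoskeletal genes are also known targets of serum response factor, which binds the CArG box.

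The targeted gene was lower on every YAP shRNA array. YAP1 had log2 values of 10.40, 10.55, 10.51 and 10.54 in YAP shRNA cells, against 12.59, 12.61, 12.77 and 12.60 in control shRNA cells. It fell by 2.14 on the log2 scale, which is 4.41-fold (SE 0.056, limma adjusted p = 6.145e-07, n = 4 each). Over all 19775 genes, limma called 16.7% at an adjusted p below 0.05, with 7.17% of genes fallen and 9.49% risen. Control shRNA replicate 4 stood somewhat apart, with a mean correlation of 0.9967 with its group, against 0.9978 to 0.998 for the other controls, and of 0.9986 to 0.9988 among YAP shRNA arrays. In that array 21 of the 44 genes lay above all 3 other controls (47.7%, against 40.2% of all genes) and 11 lay below them (25%, against 25.3%). Biliary epithelial markers were bright, with mean log2 levels of 12.6 to 14.2 for 7 genes, KRT18 highest, whereas those of 8 smooth muscle markers were 3.02 to 9.19, SYNM highest.

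Of the 44 genes, 12 fell in YAP shRNA cells (27.3%, against 7.17% of all genes), 1 rose (2.27%, against 9.49%) and 31 were not called. The list was chosen with earlier results of these data known, so these shares are no independent test of it. Most of the 44 genes are bright on the arrays: 39 lie above the median gene level, and among all genes above that level 11.4% fell and 15.2% rose. Of the 44, 20 lie in the brightest 1978 genes, where 8.95% fell and 7.79% rose. The median log2 fold change was -0.09 for the 44 genes and 0.01 for all genes, and 24 of the 44 moved by less than 0.1. In 19 genes every YAP shRNA value lay below every control value (43.2%, against 10.9% of all genes), in 2 every value lay above (4.55%, against 13.4%), and in 23 the groups overlapped. Among all genes above the median level, the groups were apart with YAP shRNA lower in 18.1%, and in 23% of the brightest 1978 genes. The falls were led by MYL9, TPM2, DIAPH3 and ARPC5, and the others that fell were PARVA, ROCK1, MYL12B, ACTN1, ZYX, CNN3, MYH9 and EZR. Without control shRNA replicate 4, 14 of the 44 genes fell and 2 rose, while over all genes 8.25% fell and 11.4% rose. A value here is the hybridisation signal of bulk RNA, in which fewer cells of a type and less RNA per cell cannot be told apart.

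**Figure D1:**
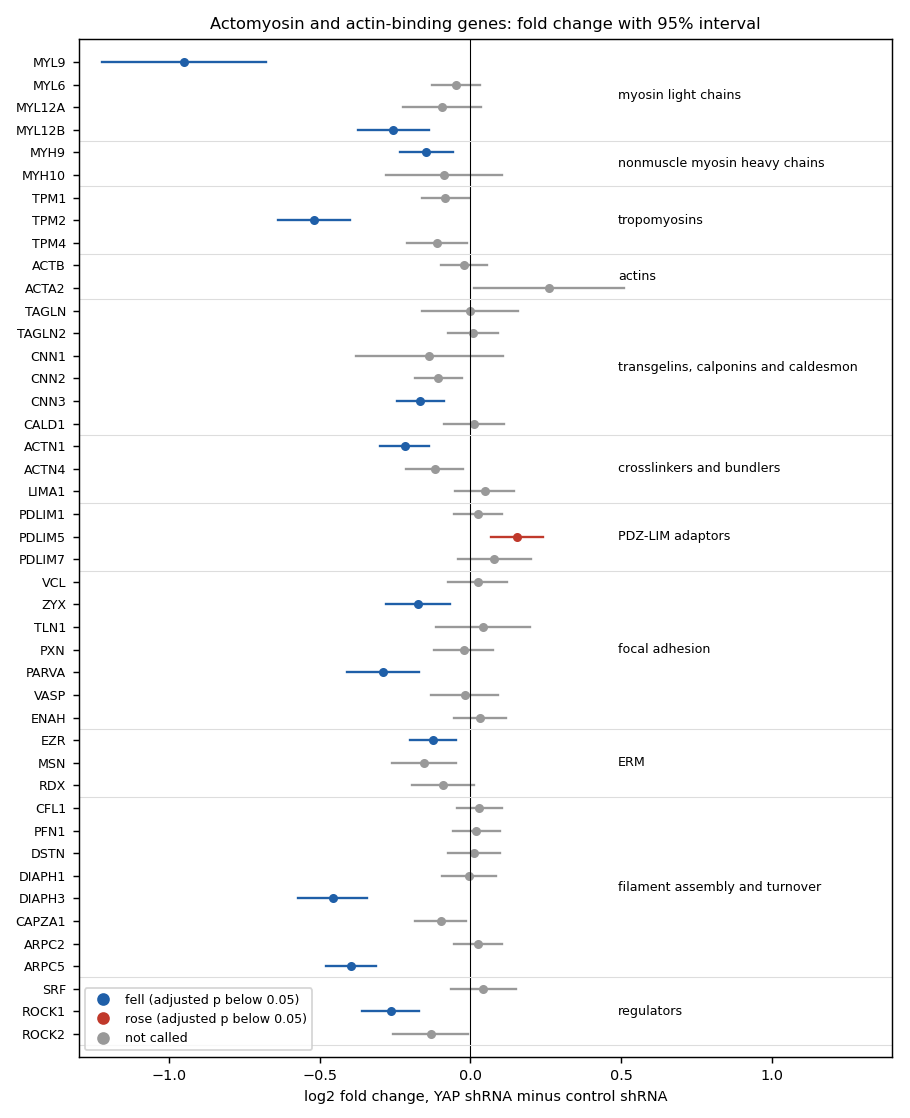
Log2 fold change of YAP shRNA over control shRNA for each of the 44 genes (points) with its 95% interval (lines, limma, n = 4 each), grouped by role from myosin light chains at the top to regulators at the bottom. MYL9 lies farthest to the left at -0.95, PDLIM5 at 0.16 is the gene that rose, and 24 genes lie within 0.1 of the zero line.

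**Figure D2:**
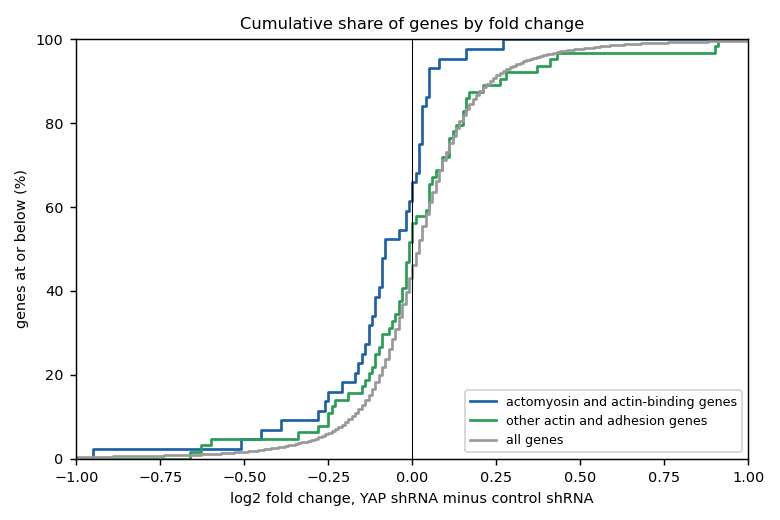
Cumulative share of genes (vertical axis, %) at or below each log2 fold change (horizontal axis) for the 44 actomyosin and actin-binding genes, 64 other actin and adhesion genes and all 19775 genes. The curve of the 44 genes lies left of the curve of all genes around zero, with medians of -0.09 and 0.01, and the 64 other genes have a median of -0.02.

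Start sites of these genes can be set beside the values. RefSeq promoter windows of 250 bases upstream of the start were found for 40 of the 44 genes, 65 windows in all, and MYL9, ACTB, TAGLN and PARVA are named here without one. The sequences below, from the RefSeq promoter table of GRCh38.p14, are the 5 windows with a CArG box, the letters bound by serum response factor, and 1 window each of TPM2, ARPC5 and DIAPH3, genes with some of the strongest falls. TPM2 and DIAPH3 have another start each: the TPM2 window printed is 1 of 2 without the TEAD letters, and the DIAPH3 window was printed because it holds them, while the other DIAPH3 window holds neither motif. The 5 windows with a CArG box were likewise printed because they hold it. ACTN1 and ROCK2 have at least 1 other start each, not printed, whose window holds no CArG box. All sequences are written 5′ to 3′ on the gene's strand and end at the base before the start. Capitals mark a CArG box or the TEAD letters GGAATG, searched on both strands, so that the latter also appears as CATTCC. The windows are chr6:43171019-43171268 (+) for SRF, chr19:16067288-16067537 (+) for TPM4, chr19:1026358-1026607 (+) for CNN2, chr14:68977567-68977816 (-) for ACTN1, chr2:11345438-11345687 (-) for ROCK2, chr9:35690057-35690306 (-) for TPM2, chr1:183635784-183636033 (-) for ARPC5 and chr13:60013190-60013439 (-) for DIAPH3.
SRF: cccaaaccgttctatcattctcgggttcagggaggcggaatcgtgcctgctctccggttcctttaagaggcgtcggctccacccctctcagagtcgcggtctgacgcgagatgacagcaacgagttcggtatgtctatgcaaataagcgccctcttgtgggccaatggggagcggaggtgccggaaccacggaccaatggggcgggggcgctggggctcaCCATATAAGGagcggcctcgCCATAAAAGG
TPM4: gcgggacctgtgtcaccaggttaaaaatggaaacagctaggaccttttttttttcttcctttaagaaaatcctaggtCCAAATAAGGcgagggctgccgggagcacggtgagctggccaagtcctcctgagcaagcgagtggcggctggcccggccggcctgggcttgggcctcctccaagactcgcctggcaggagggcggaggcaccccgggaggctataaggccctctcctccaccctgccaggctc
CNN2: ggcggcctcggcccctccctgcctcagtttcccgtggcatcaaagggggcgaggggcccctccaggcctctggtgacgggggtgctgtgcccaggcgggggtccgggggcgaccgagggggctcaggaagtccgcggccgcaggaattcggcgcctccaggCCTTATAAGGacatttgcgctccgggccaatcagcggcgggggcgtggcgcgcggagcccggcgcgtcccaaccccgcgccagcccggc
ACTN1: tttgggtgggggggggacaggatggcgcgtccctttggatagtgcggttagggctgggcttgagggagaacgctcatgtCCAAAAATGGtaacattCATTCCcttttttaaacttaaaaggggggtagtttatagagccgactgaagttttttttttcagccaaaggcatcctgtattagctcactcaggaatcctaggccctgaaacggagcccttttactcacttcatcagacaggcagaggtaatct
ROCK2: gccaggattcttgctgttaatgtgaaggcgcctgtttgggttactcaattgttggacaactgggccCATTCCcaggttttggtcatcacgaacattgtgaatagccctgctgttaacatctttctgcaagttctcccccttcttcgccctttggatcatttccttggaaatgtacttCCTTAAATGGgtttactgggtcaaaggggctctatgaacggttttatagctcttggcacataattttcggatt
TPM2: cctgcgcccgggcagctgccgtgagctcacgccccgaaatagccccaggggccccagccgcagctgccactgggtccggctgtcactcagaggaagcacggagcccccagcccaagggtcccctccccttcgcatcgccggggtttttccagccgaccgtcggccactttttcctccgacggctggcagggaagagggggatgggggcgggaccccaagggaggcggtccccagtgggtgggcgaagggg
ARPC5: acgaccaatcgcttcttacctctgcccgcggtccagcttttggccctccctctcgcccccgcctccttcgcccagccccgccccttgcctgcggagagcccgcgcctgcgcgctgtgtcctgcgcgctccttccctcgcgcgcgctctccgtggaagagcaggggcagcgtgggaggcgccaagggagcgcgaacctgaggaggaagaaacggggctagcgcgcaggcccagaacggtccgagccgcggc
DIAPH3: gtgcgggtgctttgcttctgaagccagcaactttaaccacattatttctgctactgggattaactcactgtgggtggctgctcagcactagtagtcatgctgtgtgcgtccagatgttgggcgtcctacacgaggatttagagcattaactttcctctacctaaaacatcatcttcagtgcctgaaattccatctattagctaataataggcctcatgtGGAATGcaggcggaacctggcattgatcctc

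A CArG box stood in 5 of the 65 windows (7.69%), against 1.16% of 35116 promoters of the table, and SRF itself carried 2 of them within 30 bases of its start. Of the genes with a CArG box, ACTN1 fell, and TPM4, CNN2, ROCK2 and SRF were not called. The TEAD letters stood in 13 windows of 12 genes (20.0% of windows, against 11.9% of all promoters), among them ACTN1, CNN3, DIAPH3 and MYH9, which fell. Among 18 windows of the genes that fell, 4 held the TEAD letters (22.2%), and among 46 windows of genes not called, 9 did (19.6%). The SP1 letters GGGCGG, on either strand, were frequent, in 45 windows (69.2%, against 42.6%). The AP-1 letters TGANTCA were in 4 (6.15%, against 6.57%). The TATA letters TATAAA, on either strand and so also as TTTATA, were in 3 (4.62%, against 10.7%). Among 121 windows of 55 actin and adhesion genes outside the list, 6.61% held a CArG box, near the share of the listed genes. In those 121 windows the TEAD letters stood in 9.92%, SP1 in 57.9%, AP-1 in 7.44% and TATA in 9.09%. In the printed windows none of these matches overlapped another. A match is a description of letters, not a binding site.

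Among the myosin light chains, MYL9 and MYL12B fell. MYL9 encodes a regulatory light chain that is abundant in smooth muscle and stress fibres. Its log2 values were 6.60, 6.43, 6.60 and 6.58 in YAP shRNA cells, against 7.48, 7.31, 7.34 and 7.88 in control shRNA cells. The groups did not overlap, and the highest value was that of control shRNA replicate 4. MYL9 fell by 0.95 on the log2 scale, a 1.93-fold difference (SE 0.120, limma adjusted p = 0.00102), and by 0.83 without control shRNA replicate 4 (limma adjusted p = 0.0001668). This call rests on 1 of its 2 probe sets: the dimmer one differed by -0.02, and their average by -0.49. The gene is also among the dimmer ones here, at the 46.7th percentile of all genes by level.

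MYL12B, a regulatory light chain found in most nonmuscle cells, averaged 11.73 ± 0.079 in YAP shRNA cells and 11.98 ± 0.055 in control shRNA cells (SD, n = 4 each). It fell by 0.26 (1.19-fold, limma adjusted p = 0.01001), with 11.80, 11.77, 11.72 and 11.62 in YAP shRNA cells, against 12.00, 11.93, 11.96 and 12.05 in control shRNA cells. MYL12A, its close paralog on the same chromosome, had a log2 fold change of -0.09 (limma adjusted p = 0.327) on its brightest probe set, with overlapping groups. The 3 dimmer probe sets of MYL12A gave -0.28, -0.41 and -0.65, and 2 of them fell when every probe set was tested. MYL6, the essential light chain that most nonmuscle myosin II carries, had 13.75, 13.73, 13.74 and 13.72 in YAP shRNA cells, against 13.76, 13.77, 13.77 and 13.83 in control shRNA cells. Its groups were apart but the step was small, -0.05 on the log2 scale (limma adjusted p = 0.438).

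Of the nonmuscle heavy chains, MYH9 fell and MYH10 was not called. MYH9 encodes the motor of myosin IIA, the main nonmuscle isoform in many epithelial cells. Its log2 values were 11.87, 11.83, 11.84 and 11.84 in YAP shRNA cells, against 11.98, 11.98, 12.06 and 11.94 in control shRNA cells. It fell by 0.15 (1.11-fold, SE 0.039, limma adjusted p = 0.0327). That call is weak, since leaving out any 1 array other than control shRNA replicate 4 gave an adjusted p of 0.0587 to 0.0952. MYH10, the motor of myosin IIB, was dim, with means of 6.13 ± 0.127 in YAP shRNA cells and 6.22 ± 0.136 in control shRNA cells, and a log2 fold change of -0.09 (limma adjusted p = 0.560).

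All 3 tropomyosins had YAP shRNA values below every control value, and TPM2 was the one called. TPM2, β-tropomyosin, had log2 values of 11.67, 11.65, 11.72 and 11.68 in YAP shRNA cells, against 12.33, 12.19, 12.13 and 12.15 in control shRNA cells. It fell by 0.52 (1.43-fold, 95% interval -0.64 to -0.40, limma adjusted p = 0.0003106), a step far larger than the spread within either group. Of the 3 dimmer TPM2 probe sets, 1 fell, at -0.56, and the other 2, at -0.10 and -0.17, were not called and had overlapping groups. With probe sets averaged per gene the difference was -0.34, and the call held in all 21 alternative settings. TPM1, α-tropomyosin, had 13.48, 13.50, 13.49 and 13.44 in YAP shRNA cells, against 13.54, 13.55, 13.56 and 13.59 in control shRNA cells, a difference of -0.08 (limma adjusted p = 0.144). TPM1 is read by 6 probe sets, all below zero, and 1 dimmer set fell by 0.45, with 9.82, 9.77, 9.72 and 9.74 in YAP shRNA cells against 10.07, 10.12, 10.30 and 10.36 in control shRNA cells. TPM4, a short cytoskeletal tropomyosin, had 12.83, 12.79, 12.83 and 12.83 in YAP shRNA cells, against 12.93, 12.93, 12.84 and 13.01 in control shRNA cells, a difference of -0.11 (limma adjusted p = 0.132). Per array, on their brightest probe sets, TPM2 minus TPM4 and TPM2 minus TPM1 were each lower on every YAP shRNA array.

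**Figure D3:**
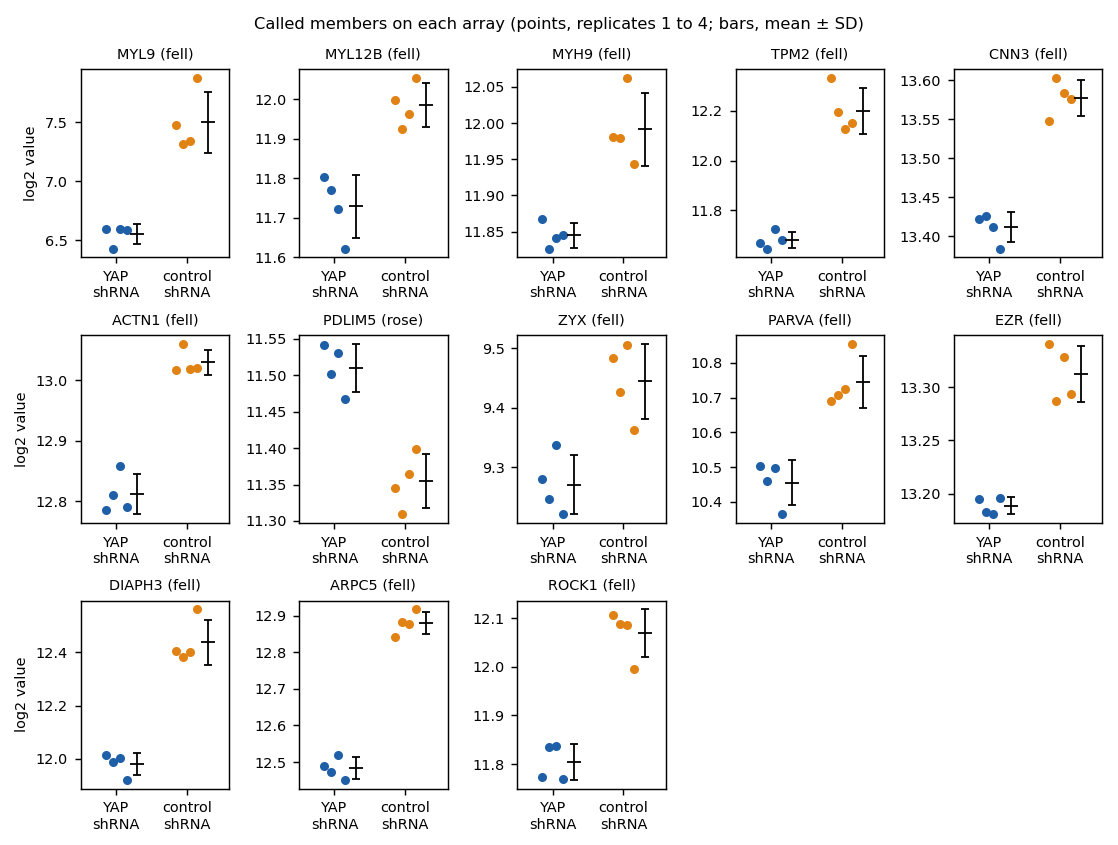
Log2 value on each array (points, replicates 1 to 4 from left to right) of the 13 called genes, YAP shRNA at left and control shRNA at right, with mean ± SD (bars, n = 4 each). Each panel has its own vertical range, which does not start at 0, and in none of the 13 do the groups overlap. PDLIM5 is higher in YAP shRNA cells and the other 12 are lower.

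The actins were not called. ACTB, β-actin, gave a log2 fold change of -0.02 (95% interval -0.10 to 0.05), and its 6 probe sets ranged from -0.06 to -0.00. The difference between the 3′ and the 5′ control probe sets of ACTB, a measure of RNA integrity and amplification, averaged 1.02 ± 0.092 in YAP shRNA arrays and 0.99 ± 0.0879 in control shRNA arrays (SD, n = 4 each, two-sided exact permutation p = 0.686). ACTA2, smooth muscle α-actin and a marker of contractile myofibroblasts, had 7.05, 6.92, 7.01 and 6.81 in YAP shRNA cells, against 6.62, 6.60, 6.51 and 7.01 in control shRNA cells. Control shRNA replicate 4 lay at the level of the YAP shRNA arrays, so the groups overlapped. The difference was 0.26 (limma adjusted p = 0.154), and without control shRNA replicate 4 it was 0.37 with a limma adjusted p of 0.00718. The 3 ACTA2 probe sets span -0.33 to 0.26, so its direction depends on the probe set.

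Among transgelins, calponins and caldesmon, CNN3 was the gene called. CNN3, the acidic calponin of nonmuscle cells, had 13.42, 13.43, 13.41 and 13.38 in YAP shRNA cells, against 13.55, 13.60, 13.58 and 13.58 in control shRNA cells. It fell by 0.17 (1.12-fold, limma adjusted p = 0.0109) on its brightest probe set, and by 0.55 on its second, which had 11.54, 11.82, 11.75 and 11.67 in YAP shRNA cells against 12.27, 12.27, 12.28 and 12.16 in control shRNA cells. CNN2, another calponin, had groups that were apart, with 12.99, 12.99, 13.01 and 12.98 in YAP shRNA cells against 13.10, 13.13, 13.10 and 13.07 in control shRNA cells. Its log2 fold change was -0.11 (limma adjusted p = 0.0666), and without control shRNA replicate 4 it was -0.12 with a limma adjusted p of 0.0419. CNN1, the smooth muscle calponin, was dim, with a log2 fold change of -0.14 (limma adjusted p = 0.461).

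TAGLN, also called SM22, an actin-binding protein of smooth muscle and stress fibres, showed how much the probe set matters. Its brightest probe set differed by -0.00 (limma adjusted p = 0.992), with means of 7.53 ± 0.134 in YAP shRNA cells and 7.53 ± 0.061 in control shRNA cells. A second one had 6.08, 6.26, 6.41 and 6.49 in YAP shRNA cells, against 7.12, 6.70, 7.07 and 7.33 in control shRNA cells, a difference of -0.74 (limma adjusted p over all probe sets = 0.0106). The dimmest had 6.04, 5.90, 5.93 and 6.07 in YAP shRNA cells, against 6.49, 6.26, 6.37 and 6.86 in control shRNA cells, a difference of -0.51 (limma adjusted p over all probe sets = 0.0307). Both of these dimmer sets fell without overlap between the groups. TAGLN2, a transgelin found in many cell types, gave 0.01, and CALD1, caldesmon, which restrains actomyosin, gave 0.01 on its brightest probe set and -0.16 to 0.21 over 11 probe sets.

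Of the crosslinkers and bundlers, ACTN1 fell. ACTN1, α-actinin 1, which bundles stress fibres and binds integrin adhesions, had 12.79, 12.81, 12.86 and 12.79 in YAP shRNA cells, against 13.02, 13.06, 13.02 and 13.02 in control shRNA cells. It fell by 0.22 (1.16-fold, SE 0.036, limma adjusted p = 0.003632), and 1 of its 4 probe sets had a value above zero, at 0.19. With probe sets averaged, ACTN1 gave -0.12 (limma adjusted p = 0.106). ACTN4, α-actinin 4, lay lower on every YAP shRNA array, with means of 11.47 ± 0.053 in YAP shRNA cells and 11.59 ± 0.037 in control shRNA cells, but missed the threshold (log2 fold change -0.12, limma adjusted p = 0.0933). LIMA1, which stabilises actin bundles, gave 0.05 (limma adjusted p = 0.541).

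The PDZ-LIM adaptors bind α-actinin at stress fibres and were the one group whose brightest probe sets all lay above zero. PDLIM5, known as ENH, had 11.54, 11.50, 11.53 and 11.47 in YAP shRNA cells, against 11.35, 11.31, 11.37 and 11.40 in control shRNA cells. It rose by 0.16 (1.11-fold, limma adjusted p = 0.0237), and its 10 probe sets all lay above zero, from 0.00 to 0.21. The call is narrow: leaving out YAP shRNA replicate 1, 2 or 3 or control shRNA replicate 1, 2 or 3 gave an adjusted p of 0.0519 to 0.0723. PDLIM1 gave 0.02 (limma adjusted p = 0.712). PDLIM7 gave 0.08 (limma adjusted p = 0.375), with 7 probe sets from -0.19 to 0.10, so no direction can be given.

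Among focal adhesion genes, PARVA and ZYX fell, and the other 5 measured were not called. PARVA, α-parvin, links integrin-linked kinase to actin. It had 10.50, 10.46, 10.50 and 10.36 in YAP shRNA cells, against 10.69, 10.71, 10.72 and 10.86 in control shRNA cells, and fell by 0.29 (1.22-fold, limma adjusted p = 0.005977). Of its 7 probe sets, 2 fell and 1 lay above zero, at 0.07, and their average gave -0.12 (limma adjusted p = 0.310). ZYX, zyxin, a LIM protein recruited to strained stress fibres, had 9.28, 9.25, 9.34 and 9.22 in YAP shRNA cells, against 9.48, 9.43, 9.51 and 9.36 in control shRNA cells. It fell by 0.17 (1.13-fold, limma adjusted p = 0.0350), and leaving out any 1 array other than YAP shRNA replicate 3 or control shRNA replicate 4 gave an adjusted p of 0.0690 to 0.0975. The core adhesion scaffold stayed within small differences: VCL, vinculin, at 0.02 (95% interval -0.07 to 0.12), TLN1, talin, at 0.04 (-0.12 to 0.20) and PXN, paxillin, at -0.02 (-0.12 to 0.08). The Ena/VASP filament elongators VASP and ENAH gave -0.02 and 0.03. The 6 ENAH probe sets all lay above zero, from 0.01 to 0.24, and none was called. Those at 0.24 and 0.16 were higher on every YAP shRNA array.

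The ERM proteins tether filaments to the plasma membrane, and all 3 had brightest probe sets below zero. EZR, ezrin, the ERM protein of epithelial microvilli, had 13.19, 13.18, 13.18 and 13.20 in YAP shRNA cells, against 13.34, 13.29, 13.33 and 13.29 in control shRNA cells. It fell by 0.12 (1.09-fold, limma adjusted p = 0.0367), the smallest fall called, and leaving out any 1 array other than control shRNA replicate 4 gave an adjusted p of 0.0617 to 0.101. MSN, moesin, had 12.67, 12.64, 12.63 and 12.56 in YAP shRNA cells, against 12.73, 12.77, 12.75 and 12.88 in control shRNA cells, a difference of -0.16 just short of the threshold (limma adjusted p = 0.0552). RDX, radixin, gave -0.09 (limma adjusted p = 0.225), with overlapping groups.

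Of 8 genes of filament assembly and turnover, 2 fell and 6 were not called. DIAPH3, a formin that nucleates and elongates unbranched filaments and acts in cytokinesis, had 12.01, 11.99, 12.00 and 11.92 in YAP shRNA cells, against 12.41, 12.38, 12.40 and 12.56 in control shRNA cells. It fell by 0.46 (1.37-fold, 95% interval -0.57 to -0.34, limma adjusted p = 0.0005102), and its 3 probe sets gave -0.51 to -0.44, the dimmest of them with overlapping groups. ARPC5, a subunit of the Arp2/3 complex that starts branched filaments, had 12.49, 12.47, 12.52 and 12.45 in YAP shRNA cells, against 12.84, 12.88, 12.88 and 12.92 in control shRNA cells. It fell by 0.40 (1.32-fold, 95% interval -0.48 to -0.31, limma adjusted p = 0.0002159), the smallest adjusted p of the 44 genes. The groups of both genes lie far apart on every array.

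The other 6 genes of this group were not called. CFL1 and DSTN, the filament-severing cofilin and destrin, gave 0.03 (95% interval -0.05 to 0.10) and 0.01 (-0.07 to 0.10), and PFN1, profilin, gave 0.02 (-0.06 to 0.10). The dimmer DSTN probe sets, at -0.04 and -0.13, were lower on every YAP shRNA array but were not called. DIAPH1, the formin paralog of DIAPH3, gave -0.01 (-0.10 to 0.09), and ARPC2, another Arp2/3 subunit, gave 0.03 (-0.05 to 0.11). CAPZA1, a subunit of the capping protein, lay lower on every YAP shRNA array, with a log2 fold change of -0.10 (limma adjusted p = 0.114). CFL1, at 0.03, had every YAP shRNA value above every control value.

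Of the regulators, ROCK1 fell. ROCK1, a kinase that raises myosin light chain phosphorylation, had 11.77, 11.84, 11.84 and 11.77 in YAP shRNA cells, against 12.11, 12.09, 12.09 and 12.00 in control shRNA cells. It fell by 0.26 (1.20-fold, limma adjusted p = 0.002795). On this chip 3 of its 5 probe sets fell, and the other 2 gave 0.06 and 0.07, with an average of -0.16 (limma adjusted p = 0.0582). ROCK2, its paralog, gave -0.13 (limma adjusted p = 0.143), and -0.17 with a limma adjusted p of 0.0448 without control shRNA replicate 4. SRF, serum response factor, gave 0.04 (95% interval -0.06 to 0.15).

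Some of these genes lie on chromosomes where falls were more frequent than over all genes. ROCK1, MYL12A and MYL12B lie on chromosome 18, where the median log2 fold change over 303 genes was -0.04 and 16.8% fell. Among its 151 genes above the median level, the median was -0.10 and 28.5% fell. DIAPH3 lies on chromosome 13, where 12.7% of 401 genes fell, and 21.7% of the 175 above the median level. The other fallen genes lie on chromosomes where 8.18% of genes or fewer fell. Falls were also more frequent on chromosomes 5 (11.9%), 12 (9.56%) and 2 (9.17%). The listed genes there were not called: PDLIM7 and DIAPH1 on 5, MYL6, LIMA1 and PXN on 12, and ARPC2 and ROCK2 on 2. The part of chromosome position in the falls of ROCK1, MYL12B and DIAPH3 was not tested.

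Over all 148 probe sets of the 44 genes, 23 fell and 1 rose with adjustment over the whole array (background 4.96% fallen and 5.25% risen of 54675 probe sets). The 23 belong to 13 genes, among them MYL12A, TPM1 and TAGLN, which were not called on their brightest probe set. MYH9 and EZR fell in the fit by gene and had no probe set called in the fit over all probe sets. No gene had probe sets called in opposite directions. Of 10 fallen genes with several probe sets, 7 had every one below zero, and ACTN1, PARVA and ROCK1 had at least 1 above.

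**Figure D4:**
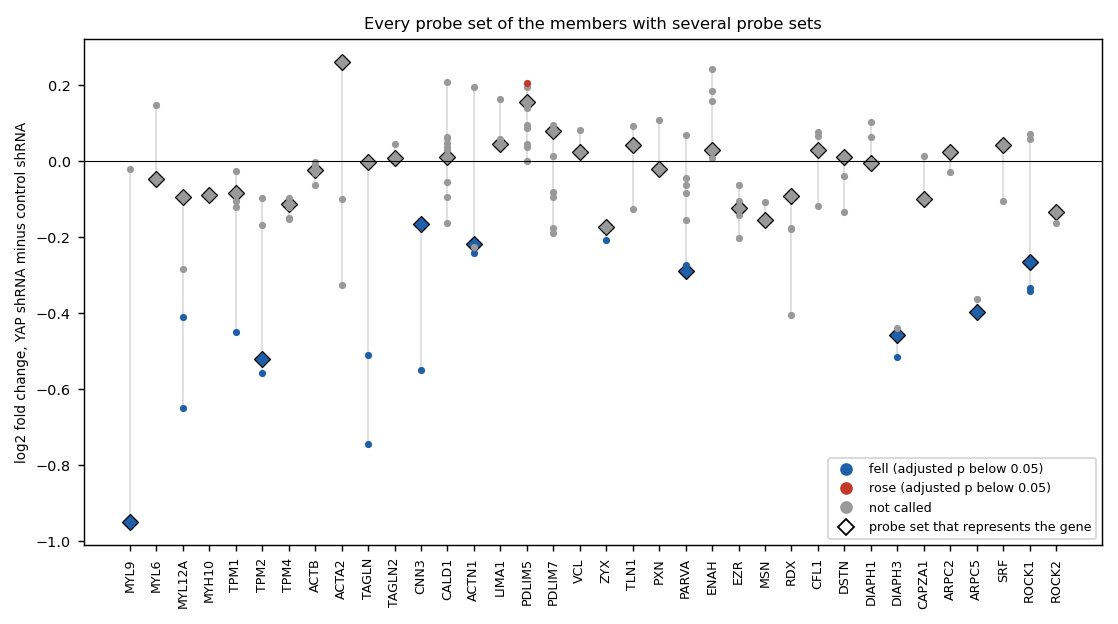
Log2 fold change of YAP shRNA over control shRNA (vertical axis) for every probe set of the 36 genes with several, coloured by its call over all probe sets, with the probe set that represents the gene as a diamond. MYL9 and TAGLN show the widest gaps between their probe sets, whereas the 3 of DIAPH3 and the 3 of ARPC5 lie close together.

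Relatives within a family were then compared directly, by the difference between their log2 values on each array. Each gene was represented by its brightest probe set. Of 27 such pairs, 12 had groups that did not overlap, and with probe sets averaged per gene 10 did. Each of the 12 had a two-sided exact permutation p of 0.0286, the smallest that 4 arrays against 4 allow. Among single genes, the groups were apart in 10.9% with YAP shRNA lower and in 13.4% with it higher. The share among pairs of unrelated genes was not computed. After adjustment over the 27 pairs the p-values of the 12 became 0.0643, so no pair passed 0.05. On the pairs' own scale, MYL9 moved by -0.90 relative to MYL6, by -0.86 relative to MYL12A and by -0.70 relative to MYL12B. These sizes depend on the probe set: with probe sets averaged, MYL9 gave -0.49 and MYL12A -0.36, a much smaller gap. TPM2 moved by -0.41 relative to TPM4, and DIAPH1 moved by 0.45 relative to DIAPH3. ARPC2 moved by 0.42 relative to ARPC5, and ROCK1 moved by -0.13 relative to ROCK2. The differences between EZR and MSN, at 0.03 (exact permutation p = 0.629), and between MYL6 and MYL12A, at 0.05 (exact permutation p = 0.314), had overlapping groups.

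Of 70 actin and adhesion genes outside the list, 64 were measured. Of these 9 fell (14.1%, against 7.17% of all genes) and 9 rose (14.1%, against 9.49%), and their median log2 fold change was -0.02. Since 55 of the 64 lie above the median gene level, where 11.4% of all genes fell and 15.2% rose, their counts are near that background. CFL2, the muscle cofilin, had 10.44, 10.46, 10.41 and 10.35 in YAP shRNA cells, against 10.98, 11.09, 11.08 and 11.16 in control shRNA cells, and fell by 0.66 (limma adjusted p = 8.92e-05), while its paralog CFL1 was not called. The LIM proteins CSRP2 and FHL2 fell by 0.64 and 0.61, and CDC42EP3, an effector of CDC42, fell by 0.29 (limma adjusted p = 0.0216). That last call was lost without any 1 of the 4 YAP shRNA arrays or without control shRNA replicate 3, with an adjusted p of 0.0502 to 0.0591. GSN, gelsolin, a severing and capping protein, had 9.58, 9.66, 9.67 and 9.71 in YAP shRNA cells, against 8.84, 8.75, 8.70 and 8.69 in control shRNA cells, and rose by 0.91 (limma adjusted p = 2.23e-05). With the 7 GSN probe sets averaged the rise was 0.34. DIAPH2 had 9.50, 9.48, 9.37 and 9.50 in YAP shRNA cells, against 8.45, 8.45, 8.49 and 8.87 in control shRNA cells, and rose by 0.89 (limma adjusted p = 0.0004372). So within the diaphanous formins DIAPH3 fell, DIAPH2 rose and DIAPH1 was not called. MYO1E, a membrane-linked myosin I, rose by 0.43, and FSCN1, fascin, the bundler of filopodia, rose by 0.41, or by 0.27 with its probe sets averaged.

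**Figure D5:**
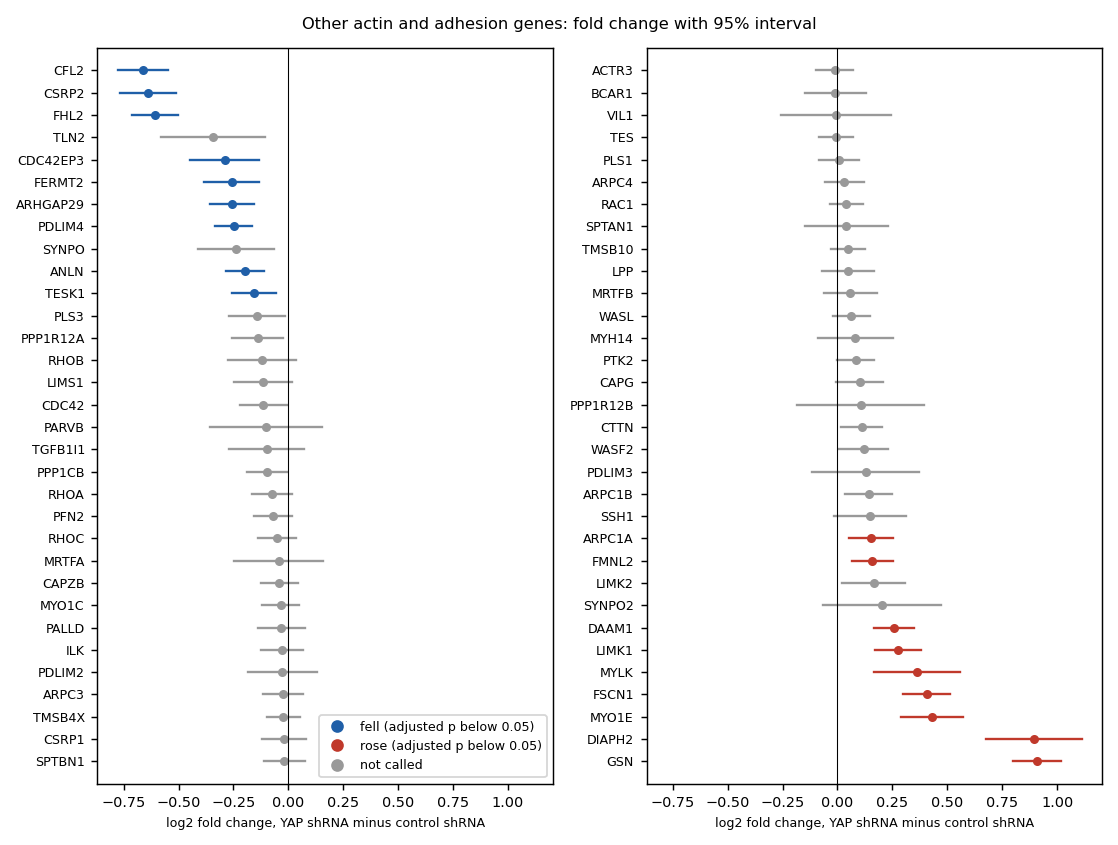
Log2 fold change of YAP shRNA over control shRNA (horizontal axis) with its 95% interval for the 64 measured actin and adhesion genes outside the list, sorted by value from the lowest at the top of the left panel to the highest at the bottom of the right. Falls reach -0.66 at CFL2 and rises 0.91 at GSN, with 9 genes called in each direction.

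Markers of other cell types were measured beside these genes. The mean log2 value of the 8 smooth muscle markers ran from 6.19 to 6.39 over the YAP shRNA arrays and from 6.36 to 6.43 over the control shRNA arrays, and CASQ2, at 3.02, was the dimmest. Of these markers SMTN, smoothelin, fell by 0.37 (limma adjusted p = 0.00382), and the other 7, SYNM at -0.16 among them, were not called. Of 8 fibroblast markers, COL1A1 rose by 0.52 (0.29 with probe sets averaged) and 7 were not called. Of 7 biliary markers, KRT19 rose by 0.15 and CDH1 by 0.33, and the other 5 were not called. Of those 7, 4 lay below zero, and their median log2 fold change was -0.05. Of 4 leukocyte markers, 1 fell and 2 rose, LYZ, the brightest, by 0.86. Of 4 endothelial markers, PECAM1 being the brightest, 0 were called by limma and 1 had an unadjusted p under 0.05, and of 4 hepatocyte markers SERPINA1 rose by 0.19. The part of these markers in the falls of MYL9, TPM2 and their relatives was not tested.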

How the data were processed

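Per the labels' protocols, total RNA of HuCCT1 cells was purified on columns, amplified by a NuGEN kit and given a biotin label. The authors deposited 1 value for each probe set on each array, taken here as log2 since they span 1.72 to 14.9 and no source states the base. Their summarisation and normalization are not given in the sources used. Array medians lay between 6.22 and 6.25, so nothing was rescaled. The values carry no detection call, and the number of arrays limits the precision.

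Of 54675 probe sets, 41097 had 1 symbol in GEO's platform annotation, 1801 had several and 11777 had none. Each of 19775 genes was represented by the brightest of its single-symbol probe sets, by mean of the 8 arrays. limma (3.58.1, R 4.3.3) compared YAP shRNA with control shRNA without a block or filter, after a check on simulated data, and a gene was called at 0.05 after Benjamini-Hochberg adjustment over the 19775 genes. Every probe set was fitted in the same way. Pairs were tested by two-sided exact permutation over 70 arrangements. Promoters and figures used Python 3.11.15, pandas 2.3.3 and matplotlib 3.10.9. The genes and lists were chosen with earlier results of these data known. All members are named, with the 4 largest called rises and falls among the other actin genes and the brightest gene of each marker list; SMTN, KRT19 and CDH1 were named after their values were seen. Alternatives covered the normalization, the choice of probe set, filters, limma settings, the replicate number as a block, the threshold and each array left out.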

Additional observations from a re-analysis of the deposited data

Results flagged for a closer look

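Values on single arrays that lay far from the other 3 of their group were searched for in 120 groups of 4 values. The gap test used, Dixon's at the 95% level, marks about 1 in 20 groups by chance, and it marked 12 here. Of these, 3 were in control shRNA replicate 4: MYL6 at 13.83 (others 13.76 to 13.77), DIAPH3 at 12.56 (12.38 to 12.41) and DIAPH2 at 8.87 (8.45 to 8.49), all above the rest of the group. The high DIAPH3 value widens its fall and the high DIAPH2 value narrows its rise. In YAP shRNA replicate 2, MYL9 was low at 6.43 (6.58 to 6.60), TPM4 at 12.79 (12.83) and FSCN1 at 11.51 (11.56 to 11.57). In YAP shRNA replicate 1, PFN1 was low at 13.49 (13.53 to 13.54), and the ACTB difference between 3′ and 5′ probe sets was high at 1.16 (0.964 to 0.988). DIAPH2 was low at 9.37 in YAP shRNA replicate 3 (9.48 to 9.50), and CAPZA1 was low at 13.03 in YAP shRNA replicate 4 (13.08). Among the controls, YAP1 was high at 12.77 in replicate 3 (12.59 to 12.61), and ACTN1 was high at 13.06 in replicate 2 (13.02).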

How the results depend on the processing

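Among 21 alternative settings, TPM2 and DIAPH3 kept their calls in all, and 11 of the 13 called genes lost theirs in at least 1. The number of the 44 genes that fell, 12 as reported, was 6 with the replicate block and 7 at an adjusted p below 0.01. It was 15 with array weights, 17 without the dimmer 50% of genes, and 18 with limma's trend and robust options. Without the dimmer 50% of genes, 39 of the 44 were still measured, and MYL9 was not among them. The share of all genes that fell, 7.17% as reported, was 4.47%, 3.86%, 8.57%, 17.4% and 9.72% in these 5 settings. When 1 array was left out, 9 to 14 of the 44 genes fell, and 5.15% to 8.25% of all genes. The number of the 44 genes that rose was 1 as reported. It was 0 with probe sets averaged per gene, in the fit of every probe set, with the replicate block and at an adjusted p below 0.01. With array weights it was 2. The share of all genes that rose, 9.49% as reported, was 8.12%, 7.53%, 6.18%, 5.17% and 12% in these 5 settings. When 1 array was left out, 0 to 2 of the 44 genes rose, and 6.89% to 11.4% of all genes. Same-numbered arrays did not deviate together (correlations -0.17, -0.0588, 0.00203 and -0.206), so the numbers were not taken as pairs. The count of all genes changed, 3294, was 2106 with the replicate block and 1785 at an adjusted p below 0.01. Of the 148 probe sets, the 23 that fell became 43 with trend and robust, 12 with the replicate block and 15 to 27 without 1 array, while the 1 that rose became 0 with median centring, 3 with trend and robust, 0 with the replicate block and 0 to 3 without 1 array. Without probe sets whose names end in _x_at, _s_at or _a_at, 36 of the 44 genes were still measured, and 8 fell and 1 rose. Of 55 other actin genes still measured, 2 fell and 6 rose, against 9 and 9 of 64 as reported. Over the 16790 genes of that setting, 6.46% fell and 7.97% rose. MYH9, ZYX, FHL2, CFL2 and CSRP2 are among those not measured there. In that setting PARVA gave 0.068 (limma adjusted p = 0.628) and PDLIM7 -0.18 (0.0399), both reversed, MYL9 gave -0.02 (0.876), ARPC5 -0.36 (0.0892) and TPM1 -0.45 (0.0029). With probe sets averaged per gene, ACTN1, PARVA, ROCK1, EZR and PDLIM5 were no longer called, and MYL12A (-0.36), TAGLN (-0.42) and RDX (-0.21) fell. Without control shRNA replicate 4, 14 genes fell and 2 rose. The cause of these changes was not tested.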
